A study of Mus musculus with 6 samples.

Results

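Cholesterol synthesis and its control were followed through 8 genes in mouse epididymal white fat. The genes were 6 enzymes (Hmgcs1, Fdps, Fdft1, Sqle, Lss and Sc5d), the transcription factor gene Srebf2 and the sterol sensor gene Insig1. They were taken by name, as every probe set that the platform annotation assigns to one of these symbols. That gave 21 of the 34945 probe sets with 1 gene symbol, and 8 of 18193 genes, all 8 among the 13453 genes tested. RNA was measured on 6 Affymetrix arrays, whose probes lie near the 3' end of each transcript, 3 from AFO mice and 3 from control mice. AFO mice carried floxed Fto alleles (FTO flox/flox) together with Adiponectin-cre, a Cre recombinase under adiponectin regulatory sequence that is active in fat cells. Control mice carried the same floxed alleles without Cre, so an effect of the Cre transgene and one of Fto loss cannot be told apart. All were male C57BL/6 mice of 16 weeks on chow with free access to food. Each array held an independent RNA pool, numbered 1 to 3 in both genotypes, and the number of mice in a pool is not given in the sources used here.

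Cells build cholesterol from acetyl-CoA through mevalonate, farnesyl diphosphate, squalene and lanosterol. The membrane-bound transcription factor SREBP2, the product of Srebf2, turns on most of these enzymes when sterols run low. When sterols are plentiful, Insig proteins hold its escort protein Scap in the endoplasmic reticulum, and the factor is not released. White fat stores a large pool of free cholesterol in its lipid droplets and makes little of it compared with liver.

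The values are log2 expression levels, so a difference of 1 unit is a doubling of signal, and levels of different genes are not set against each other. Of the 9 adipocyte markers measured, 9 lay above the detection filter, with array medians of 12.46, 11.69 and 11.93 in AFO pools 1, 2 and 3 and 12.30, 12.10 and 12.10 in control pools 1, 2 and 3. All 9 were nominally lower in AFO fat, where 0 of 9 had the higher mean, beside 45.7% of all genes. That sign was not particular to adipocyte markers. AFO fat had the higher mean in 0 of 6 macrophage, 0 of 6 mesothelial, 0 of 5 endothelial and 0 of 3 hepatocyte markers. The count was 1 of 3 for B cell, 1 of 4 for T cell, 1 of 4 for stromal progenitor and 6 of 6 for skeletal muscle markers. In both genotypes, pool 2 differed from the rest in markers of other cells. Its B cell marker medians were 9.83 (AFO) and 9.05 (control), against 5.20 to 6.18 on the other 4 arrays. Its mesothelial medians were 4.67 (AFO) and 5.24 (control), against 8.14 to 8.29. Skeletal muscle markers read 9.50, 11.89 and 5.10 in AFO pools 1, 2 and 3 and 5.31, 9.29 and 5.12 in control pools 1, 2 and 3. In whole tissue, fewer fat cells and less RNA per fat cell cannot be told apart. Cldn2, the 1 epididymal marker of 5 listed that passed the filter, read 9.11, 4.51 and 8.44 in AFO pools 1, 2 and 3 and 5.09, 4.52 and 3.93 in control pools 1, 2 and 3 (difference 2.84, SE 1.16). Its control mean of 4.51 lay below the filter of 4.88, so it passed only through its AFO values. Of the 4 epididymal markers with a probe set, 2 had the higher mean in AFO fat. Their array medians were 4.66, 4.33 and 4.39 in AFO pools 1, 2 and 3 and 4.67, 4.47 and 4.09 in control pools 1, 2 and 3. Alb, a hepatocyte marker, read 7.33, 6.76 and 6.996 in AFO pools 1, 2 and 3. Control pools 1, 2 and 3 read 7.69, 8.20 and 8.91. The groups of Alb did not overlap (difference -1.24, SE 0.32), beside 3.50% of all genes. The other hepatocyte markers tested, Apoa1 (-0.32, SE 0.58) and Ttr (-0.03, SE 0.13), had overlapping groups. Both were higher in AFO fat within pools 1 and 2. Cldn2 and Alb each had a limma adjusted p of 0.999999. The part of these marker differences in the sterol genes was not tested. Fto itself read 6.13, 5.45 and 5.95 in AFO fat and 6.11, 6.20 and 5.59 in control fat, and this does not check the genotype, since where its probe set lies relative to the deleted part is not known here.

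No difference in the sterol genes between AFO and control fat passed the test with 3 arrays a group. Under limma with Benjamini-Hochberg adjustment, 0 of the 8 members passed an adjusted p of 0.05, as did 0% of all genes tested. At an unadjusted p under 0.05 the count was 0 of 8, beside 1.03% of all genes (139 genes). AFO fat was nominally higher in 4 of 8 (Sqle, Srebf2, Lss and Fdps), beside 45.7% of all genes, and nominally lower for Sc5d, Insig1, Fdft1 and Hmgcs1. The differences ran from -0.32 (Sc5d) to 0.22 (Sqle), with a median of -0.03, beside a median of -0.01 over all genes tested. In none of the 8 did the 3 AFO values lie apart from the 3 control values, where 3.50% of all genes had groups that did not overlap. With pool number as a block, 0 of 8 members passed as well, beside 0.0149% of all genes (2 genes). Without both pool 2 arrays 0 of 8 passed, beside 0.676% of all genes, and with the block added 0 of 8, beside 2.01%.

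**Figure D1:**
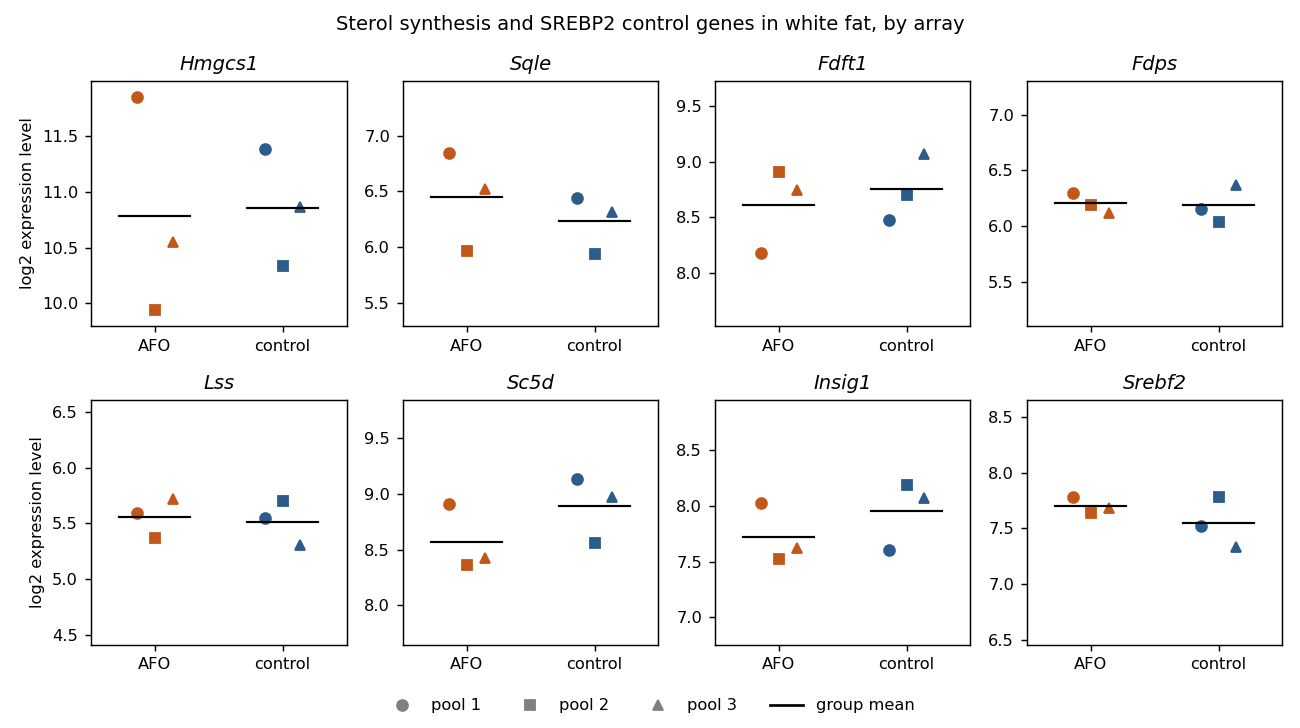
Log2 expression level of each member (y axis, the same span in every panel) in 3 AFO arrays and 3 control arrays, with the pool number as marker shape and the group mean as a line. The AFO and control points overlap in every panel, and Hmgcs1 spans the widest range, from 9.94 to 11.85.

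Hmgcs1 (Entrez gene 208715) encodes the cytosolic HMG-CoA synthase, which makes HMG-CoA for the mevalonate pathway. Its level was 11.85, 9.94 and 10.55 in AFO pools 1, 2 and 3, against 11.38, 10.33 and 10.86 in control pools 1, 2 and 3. Pool 1 was highest, pool 3 intermediate and pool 2 lowest in both genotypes, and the genotypes overlapped. The distance from pool 2 up to pool 1 was 1.91 log2 units in AFO fat and 1.05 in control fat. Over the 6 arrays the range was 1.91, or 3.75-fold, wider than that of 95.7% of the genes tested. Against this spread the AFO minus control difference of -0.08 (SE 0.51) had a 95% interval from -1.30 to 1.14, which spans fold changes from 0.406 to 2.21. The sign differed between pool numbers: AFO was higher by 0.47 in pool 1 and lower in the others, at -0.39 in pool 2 and -0.31 in pool 3. Each of these differences sets a single AFO array against a single control array of the same number. Without the pool 2 arrays the difference was 0.08 (limma adjusted p = 0.999).

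Hmgcs1 had 5 probe sets, and 4 of them lay above the filter. All 4 were highest in AFO pool 1 and lowest in AFO pool 2, with ranges from 1.62 to 2.00 log2 units. Their AFO minus control differences ran from -0.29 to -0.08. The fifth, at 2.85 to 4.32, lay below the filter and was not used. The pool order of Hmgcs1 therefore does not rest on 1 set of probes, although the probe set with the highest mean carries the _x_at ending that marks possible cross-hybridisation.

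Fdps (Entrez gene 110196) encodes farnesyl diphosphate synthase, which makes the last intermediate shared by sterols and the non-sterol isoprenoids. It was nearly flat, at 6.30, 6.19 and 6.12 in AFO pools 1, 2 and 3 and 6.15, 6.04 and 6.37 in control pools 1, 2 and 3. The difference was 0.02 (SE 0.14, 95% interval -0.32 to 0.36), and its range over the 6 arrays, 0.33, was wider than that of only 15.2% of genes. A second Fdps probe set, with a mean of 2.33, was too dim for the filter.

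Fdft1 (Entrez gene 14137) encodes squalene synthase, the first enzyme committed to sterols. Its brightest probe set read 8.18, 8.91 and 8.74 in AFO pools 1, 2 and 3, against 8.48, 8.70 and 9.07 in control pools 1, 2 and 3. Here pool 1 was the lowest pool in both genotypes, the reverse of Hmgcs1. The difference was -0.14 (SE 0.24, 95% interval -0.73 to 0.44). The other 3 Fdft1 probe sets spanned 0.17 to 0.34 log2 units over the arrays, against 0.89 for the brightest, which ends in _x_at, and they did not place pool 1 lowest in both genotypes. The spread of Fdft1 over the pools is thus read from 1 of its 4 probe sets. The AFO minus control differences of the 4 ran from -0.14 to 0.02.

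Sqle (Entrez gene 20775) encodes squalene epoxidase, a rate-limiting step after squalene and a classical SREBP2 target. It read 6.85, 5.97 and 6.52 in AFO pools 1, 2 and 3, against 6.44, 5.93 and 6.32 in control pools 1, 2 and 3. The pools stood in the same order as for Hmgcs1, with pool 2 below the other 4 arrays. AFO was higher in 3 of 3 pools, by 0.41, 0.03 and 0.21. That pattern held for 10.5% of all genes tested. The difference of 0.22 (SE 0.26) had a 95% interval from -0.41 to 0.84 and a limma adjusted p of 0.999999. With pool number as a block the SE was 0.13 and the adjusted p 0.99. Without AFO pool 1 the difference was 0.02 and without AFO pool 2 it was 0.46, so its size was set by single arrays.

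Lss (Entrez gene 16987) encodes lanosterol synthase, which closes the sterol ring system. It read 5.59, 5.37 and 5.72 in AFO pools 1, 2 and 3 and 5.55, 5.70 and 5.30 in control pools 1, 2 and 3. The groups overlapped and no pool stood apart in both genotypes. The difference was 0.05 (SE 0.16, 95% interval -0.35 to 0.44). A second probe set read 5.54, 4.51 and 5.52 in AFO and 5.27, 5.07 and 5.46 in control fat, with pool 2 lowest in both genotypes and a difference of -0.07. The Lss probe sets thus disagreed on pool 2, and neither separated the genotypes.

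Sc5d (Entrez gene 235293) encodes the sterol C5-desaturase, a late enzyme of the pathway. Its level was 8.91, 8.37 and 8.42 in AFO pools 1, 2 and 3, against 9.13, 8.56 and 8.97 in control pools 1, 2 and 3. AFO was lower in 3 of 3 pools, at -0.22, -0.20 and -0.55. All 3 Sc5d probe sets were lower in AFO fat in every pool, with overall differences of -0.32, -0.21 and -0.21. These probe sets read the same RNA and do not replicate each other as samples. The dimmest of them ran from pool 1 through pool 2 down to pool 3 in both genotypes, where the others placed pool 2 lowest. Over all genes, 12.8% were lower in AFO fat in 3 of 3 pools. The difference of -0.32 (SE 0.22, 95% interval -0.84 to 0.20) corresponds to 0.799-fold and had a limma adjusted p of 0.999999. With pool number as a block its 95% interval ran from -0.60 to -0.04, with an unadjusted p of 0.0309 where 4.32% of all genes had one under 0.05, and the limma adjusted p was 0.99. Leaving out both pool 2 arrays gave -0.39. The reading of Sc5d rests on 3 arrays a group and did not pass over all genes in any fit.

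**Figure D2:**
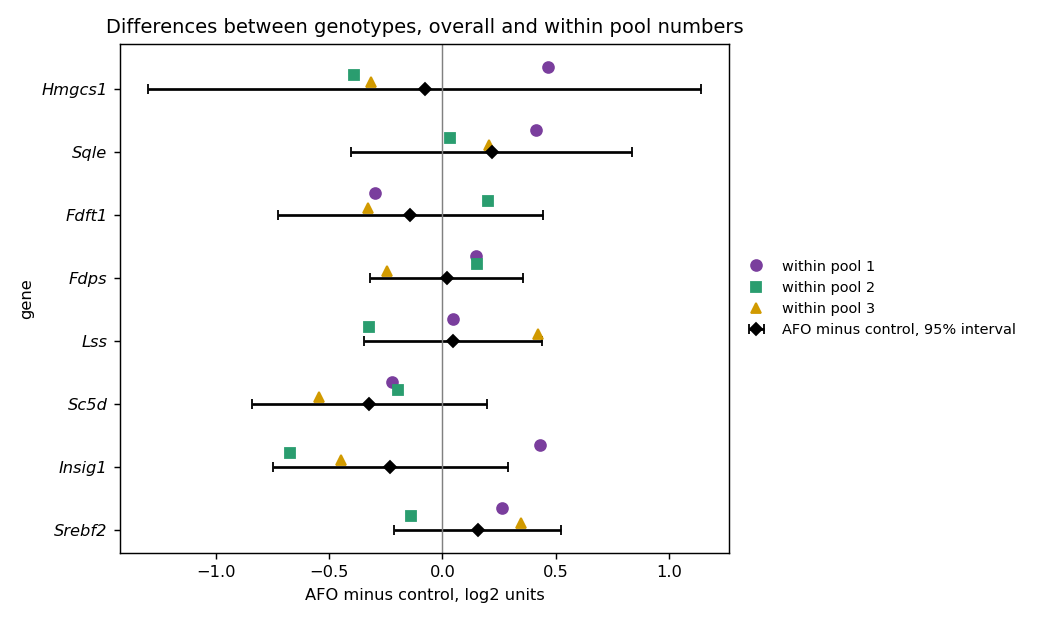
AFO minus control difference of each member in log2 units (x axis), with the black diamond and bar for the limma estimate and its 95% interval over 3 arrays a group, and coloured markers for the difference within each pool number. Every interval includes 0. Sqle lies above 0 in all 3 pools and Sc5d below 0 in all 3.

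On the control side, Srebf2 (Entrez gene 20788) varied little. Its brightest probe set read 7.78, 7.64 and 7.68 in AFO pools 1, 2 and 3, against 7.52, 7.78 and 7.33 in control pools 1, 2 and 3. The AFO arrays lay close together (SD 0.07) and inside or at the upper edge of the control range (SD 0.22). The difference was 0.16 (SE 0.15, 95% interval -0.21 to 0.52), or 0.30 without the pool 2 arrays (limma adjusted p = 0.999). A second Srebf2 probe set gave -0.03 (SE 0.16), so the sign was not shared between probe sets. Transcript levels of Srebf2 do not measure the processed factor.

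Insig1 (Entrez gene 231070) encodes an endoplasmic reticulum protein that retains Scap when sterols are high, and is itself an SREBP target. It had 1 probe set, which read 8.03, 7.52 and 7.62 in AFO pools 1, 2 and 3, against 7.60, 8.19 and 8.08 in control pools 1, 2 and 3. AFO pool 1 was the high array of its genotype and control pool 1 the low one. The within-pool differences were accordingly 0.43, -0.67 and -0.45. The overall difference was -0.23 (SE 0.22, 95% interval -0.75 to 0.29). It was -0.01 without the pool 2 arrays and turned to 0.15 with array weights (limma adjusted p = 0.922). Pool number as a block did not narrow its SE (0.22 in both fits), in contrast to Hmgcs1 (0.51 without and 0.18 with the block) and Sc5d (0.22 and 0.11).

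Co-variation across the arrays divided the members, each read from its brightest probe set. Hmgcs1, Sqle and Sc5d ran from pool 1 through pool 3 down to pool 2 in both genotypes, which 3 of 8 members and 8.78% of all genes tested did. This order was noted in these same values and is that of Hmgcs1, which is among the 3, so the count is no test. The dimmest Sc5d probe set placed pool 3 lowest instead. Fdft1 ran with pool 1 lowest at that probe set only, and Fdps, Lss, Insig1 and Srebf2 had no pool order shared by the genotypes. A second Lss probe set placed pool 2 lowest in both genotypes. The median of the 8 centred profiles (each level minus its mean over the 6 arrays) was shallow, at 0.17, -0.24 and -0.01 in AFO pools 1, 2 and 3 and -0.02, -0.07 and 0.11 in control pools 1, 2 and 3. Both pool 2 arrays lay below the other 4 in it, so no correlation over the 6 arrays is given. The root mean square distance of each member from the median of the other 7 ran from 0.17 for Fdps to 0.58 for Hmgcs1. Between 24.3% and 93.6% of the ranked genes lay nearer to that median than the member did. The distance is not scaled, so it grows with the range of a gene as well as with a different shape. Hmgcs1 had a range of 1.91 and Fdps of 0.33, and the distance alone cannot show whether the members share a shape. The array medians of the 9 adipocyte and the 5 endothelial markers were, like Hmgcs1, highest in AFO pool 1 and lowest in AFO pool 2. Singly, 2 of the 9 (Cidec and Pnpla2) and 1 of the 5 (Cdh5) were. In control pools 1, 2 and 3 the adipocyte medians were 12.30, 12.10 and 12.10 and the endothelial ones 8.71, 8.28 and 8.76. The part of either marker set in the Hmgcs1 profile was not tested.

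**Figure D3:**
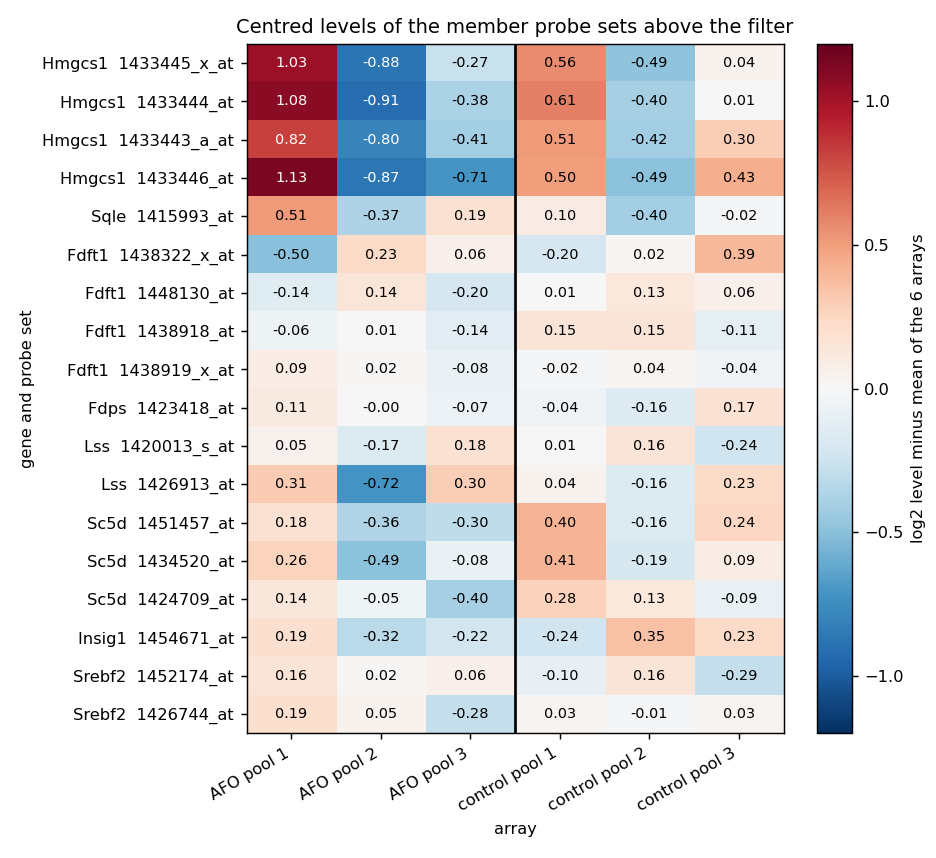
Log2 level minus the mean of the 6 arrays for the 18 member probe sets above the filter (rows), by array (columns, AFO left of the line and control right of it), with red above and blue below the mean. The 4 Hmgcs1 rows share 1 pattern, with AFO pool 1 highest (0.82 to 1.13) and AFO pool 2 lowest (-0.91 to -0.80). The rows of Fdft1, Lss and Srebf2 differ between probe sets. The dimmest Sc5d row places pool 3 lowest in both genotypes, where the other Sc5d rows place pool 2 lowest.

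The 10 genes outside the members that lay nearest to their median profile were Pik3ca, Trpm7, Mtx2, Mafg, Ercc4, Scarf1, Braf, Pigp, Clpp and Marchf6, the nearest at a root mean square distance of 0.03 over 6 arrays. Each follows the shallow profile closely, and Pik3ca for instance read 8.78, 8.35 and 8.60 in AFO and 8.63, 8.51 and 8.76 in control pools 1, 2 and 3. Since Hmgcs1 varied most, the same distance was also taken from it alone, a choice made after its values were seen. The nearest were Cdkn1a, Stx6, Adamts4, Nudt18 and Zbed5, at 0.14 to 0.17. Cdkn1a read 9.80, 8.17 and 8.76 in AFO and 9.54, 8.22 and 9.07 in control pools 1, 2 and 3, the same pool order as Hmgcs1. Among the members, Sqle (0.40) and Sc5d (0.44) were nearest to Hmgcs1, with 4.17% and 7.46% of genes nearer, and Fdft1 (0.88) was the farthest, with 92.3% nearer.

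The DNA before the gene start is shown for Hmgcs1 and Sc5d, which shared a pool order, and for Insig1, an SREBP target that did not. RefSeq promoter windows (build GRCm38.p6) were found for 5 of the 8 members, namely Hmgcs1, Sc5d, Insig1, Lss and Srebf2. Each line gives the 250 bases before the start, 5′ to 3′ on the strand of the gene. Capitals mark the letters TCACNCCAC or its inner part CACNCCAC, the form of a sterol regulatory element, and CCAAT, the box bound by NF-Y, each searched on both strands (a match on the opposite strand shows as GTGGNGTG or ATTGG). The windows are chr13:119690101-119690350 on the plus strand for Hmgcs1, chr9:42264301-42264550 on the minus strand for Sc5d and chr5:28071162-28071411 on the plus strand for Insig1.
Hmgcs1: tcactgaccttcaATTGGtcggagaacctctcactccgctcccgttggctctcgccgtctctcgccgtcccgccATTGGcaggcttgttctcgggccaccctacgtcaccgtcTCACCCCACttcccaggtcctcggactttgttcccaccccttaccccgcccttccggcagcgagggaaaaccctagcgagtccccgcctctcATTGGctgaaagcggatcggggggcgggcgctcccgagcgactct
Sc5d: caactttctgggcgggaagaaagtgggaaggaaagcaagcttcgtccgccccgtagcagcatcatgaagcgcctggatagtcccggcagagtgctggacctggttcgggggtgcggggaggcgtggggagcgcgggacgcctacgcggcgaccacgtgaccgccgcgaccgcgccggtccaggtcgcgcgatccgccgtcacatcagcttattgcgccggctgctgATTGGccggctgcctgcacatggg
Insig1: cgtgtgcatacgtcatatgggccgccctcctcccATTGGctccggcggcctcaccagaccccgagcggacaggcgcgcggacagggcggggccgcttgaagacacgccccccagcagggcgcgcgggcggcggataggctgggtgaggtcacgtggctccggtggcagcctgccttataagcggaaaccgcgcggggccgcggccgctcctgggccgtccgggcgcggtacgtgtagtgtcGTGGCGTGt

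The full TCACNCCAC form was found in the Hmgcs1 window alone among the 5, at bases 137 to 129 before the start, and in 1.05% of all 32851 windows of this length. The shorter CACNCCAC, which every full match contains, was found in Hmgcs1 and, on the opposite strand at bases 9 to 2 before the start, in Insig1, beside 5.29% of all windows. CCAAT was found in 5 of 5 member windows, 3 times in Hmgcs1 and once in each of the others, beside 33.8% of all windows. GGGCGG, the GC box of Sp1, was also found in 5 of 5, beside 32.7%. These are matches of letters and not measured binding, and the 5 windows have GC contents of 64.8% to 73.6%.

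Of 16 symbols listed for other enzymes of the pathway, 12 were tested and 4 were not analysed here. The latter include Sc4mol, an earlier symbol of Msmo1. Of the 12, 3 were nominally higher and 9 nominally lower in AFO fat, 0 passed, and the median difference was -0.11 beside -0.01 for all genes. Msmo1, a sterol C4-methyl oxidase, read 7.34, 6.40 and 7.12 in AFO and 7.07, 7.001 and 7.78 in control pools 1, 2 and 3, a difference of -0.33 (SE 0.32). Tm7sf2, a sterol C14-reductase, had the smallest unadjusted p of the list (0.289), with a difference of -0.27 (SE 0.23) and lower values in 3 of 3 pools. Cyp51, the lanosterol demethylase, was highest in pool 3 of both genotypes, at 7.38, 6.71 and 8.03 in AFO and 7.06, 6.82 and 8.39 in control pools 1, 2 and 3. Its pool order thus differed from that of Hmgcs1. Both pool 2 arrays lay below the other 4 in 5 of these 12 enzymes and in 2 of the 8 members (Hmgcs1 and Sqle), beside 31.0% of all genes.

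The within-pool signs were also counted. AFO was higher within pool 1 and lower within pools 2 and 3 in 2 of the 8 members (Hmgcs1 and Insig1) and in 4 of the 12 other enzymes (Pmvk, Cyp51, Msmo1 and Ebp), beside 15.8% of all genes, a share that the members' count lies near. The LXR genes described below showed it in 5 of 7. The pattern was noticed after the values were seen. Adipocyte markers showed it in 4 of 9. Over the members, 6 of 8 were higher in AFO fat in pool 1, 3 of 8 in pool 2 and 3 of 8 in pool 3, beside 55.7%, 45.3% and 44.7% of all genes, with medians of 0.20, -0.17 and -0.28.

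Genes of SREBP processing and sterol sensing had 4 of 12 nominally higher, 8 nominally lower, 0 passing and a median of -0.02. Scap, the SREBP escort, differed by less than 0.01 in size (SE 0.14), and Insig2, the second Insig gene, by -0.14 (SE 0.41). Ubxn8, an adaptor of endoplasmic reticulum degradation, differed by -0.27 (SE 0.23) and Rnf139, an endoplasmic reticulum ubiquitin ligase, by 0.14 (SE 0.14). Srebf1, the sister gene of Srebf2, read 8.44, 8.97 and 7.94 in AFO and 8.53, 9.38 and 8.20 in control pools 1, 2 and 3, highest in pool 2 where Hmgcs1 was lowest. Its difference was -0.25 (SE 0.38). Cyp51, Scap, Insig2 and Srebf1 were named after their values were seen.

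Sterol uptake and transport genes had 2 of 6 higher and 4 lower, 0 passing and a median of -0.08, with the receptor Lrp1 at -0.16 (SE 0.30) and the sterol-regulated membrane protein Tmem97 at -0.11 (SE 0.17). Npc2 of this list, named after its values were seen, was lower in AFO fat in every pool, at -0.05 (SE 0.10). Its groups did not overlap, beside 3.50% of all genes. The LXR arm, which removes surplus sterol, had 1 of 7 higher and 6 lower, 0 passing and a median of -0.05, with the nuclear receptor Nr1h3 at -0.24 (SE 0.19) and the phospholipid acyltransferase Lpcat3 at -0.20 (SE 0.17). In the isoprenoid branch 2 of 8 were higher and 6 lower, 0 passing, with a median of -0.06. Ggps1, the geranylgeranyl diphosphate synthase, differed by -0.26 (SE 0.27) and Dolk, the dolichol kinase, by -0.19 (SE 0.20).

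Of 7 listed genes of sterol esters and oxysterols 5 were tested, with 5 of 5 nominally higher in AFO fat beside 45.7% of all genes, 0 passing and a median of 0.15. The differences of Nceh1, Lipa, Ch25h and Cyp27a1 were each smaller than their SE. Cyp7b1, an oxysterol hydroxylase, read 4.97, 5.22 and 5.74 in AFO pools 1, 2 and 3. Control pools 1, 2 and 3 read 4.93, 4.89 and 4.87, the last just below the filter of 4.88 and the others just above it. The groups of Cyp7b1 did not overlap, beside 3.50% of all genes. The difference was 0.41 (SE 0.21), and its limma adjusted p was 0.999999. Nceh1, a neutral cholesterol ester hydrolase, differed by 0.11 (SE 0.17).

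Among targets better known for SREBP1, 6 of 12 were higher, 6 lower, 0 passed and the median was -0.04. Scd2, a stearoyl-CoA desaturase, read 8.93, 9.07 and 8.79 in AFO pools 1, 2 and 3. Control pools 1, 2 and 3 read 7.90, 8.59 and 8.53. The groups of Scd2 did not overlap, beside 3.50% of all genes, and the difference was 0.59 (SE 0.21, limma adjusted p = 0.999999). Acaca, the acetyl-CoA carboxylase of fatty acid synthesis, differed by -0.30 (SE 0.19). Fads2, a fatty acid desaturase named after its values were seen, read 7.41, 5.65 and 6.90 in AFO and 6.38, 5.47 and 6.22 in control pools 1, 2 and 3. Like Sqle it was higher in AFO fat in 3 of 3 pools and lowest in pool 2 of both genotypes, with a difference of 0.63 (SE 0.48) that did not pass.

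**Figure D4:**
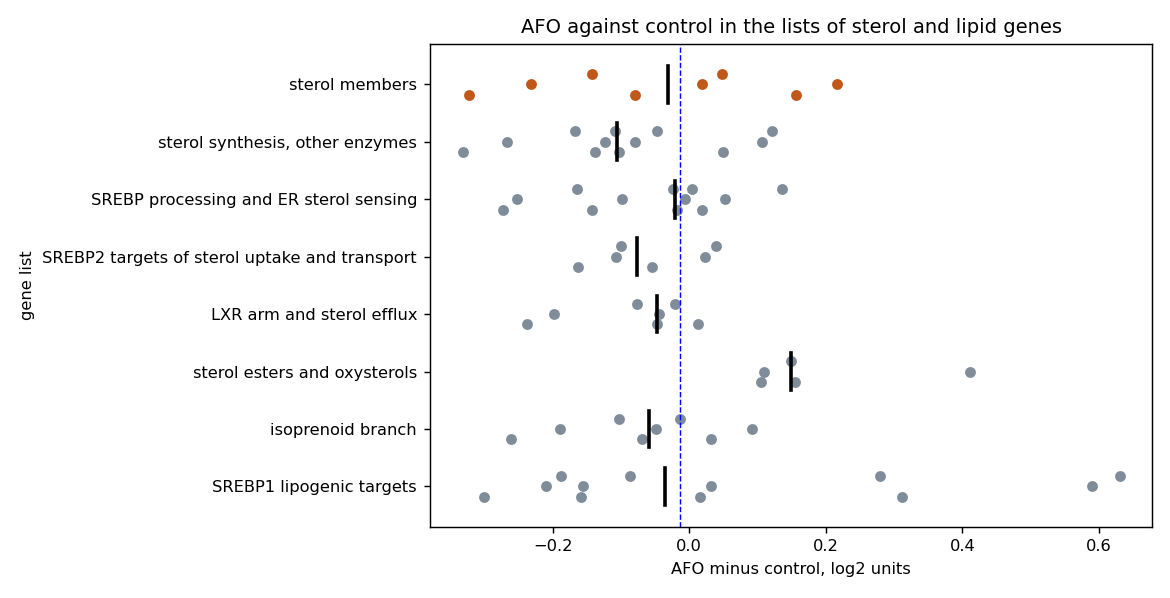
AFO minus control difference in log2 units (x axis) for each tested gene of the lists (rows, points offset in height for legibility), with a black bar at the median of each list and a dashed line at the median of all genes tested (-0.01). The members spread on both sides of the dashed line, from -0.32 to 0.22, and the 5 ester and oxysterol genes all lie to its right.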

How the data were processed

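Per the labels' protocols, biotin-labelled cRNA was made from total RNA for Affymetrix 3' arrays. The deposited values are log2 levels per probe set, made by the authors with RMA (background correction, quantile normalisation and probe summary) in Affymetrix Expression Console 1.4, per the submitters' processing notes. A change shared by most genes is therefore not visible, and differences of dim genes can be understated. The build behind the probe sets is not given in the sources used here. Array medians ran from 5.35 to 5.43, and 0 pairs of arrays were identical. Precision is limited by the 6 arrays.

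Of 45101 probe sets 64 were controls, 34945 had 1 symbol in the platform annotation, 932 carried several symbols and 9160 are unnamed in it, and neither of these was tested. Probe sets of 1 gene with a mean at or above the 40th percentile of all non-control probe sets (4.88) were kept (23142), and each gene was read from the one with the highest mean, which gave 13453 genes. Members and lists were chosen with earlier results of these data known. Besides Fto and the members, the 2 listed genes with the smallest unadjusted p were named where none passed, and the 10 genes nearest to the members' median profile, clone names passed over. The genotypes were set against each other with limma 3.58.1 (R 4.3.3), unpaired, with moderated variances that follow the mean level. Benjamini-Hochberg adjustment ran over all genes, with calls at an adjusted p under 0.05. The fits were run on simulated data with independent noise for each array and no pool effect. That does not test them under the pool structure of these arrays.

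Groups and pool numbers came from the titles. As a check of pairing, same-numbered arrays deviated together from their genotype mean, with correlations of 0.594, 0.799 and 0.589 across 13453 genes for pools 1, 2 and 3. Other pairs of an AFO and a control array had -0.656 to 0.441. The negative values all came from pairs with pool 2, and the pairs between pools 1 and 3 had 0.362 and 0.441. Deviations within a genotype are not free of each other, so a single outlying pool can shape all of these correlations. The labels do not say what an equal number shares, so a blocked fit on that number stands beside the unpaired one. The labels call the pools independent without tying them to animals, so p-values measure the spread between these pools. Alternatives covered the filter, normalisation, choice of probe set, empirical Bayes settings, array weights, the block, each array left out and both pool 2 arrays left out.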

Additional observations from a re-analysis of the deposited data

How the results depend on the processing

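With pool number as a block (the replicate block), 2 genes passed over all 13453 in place of 0, and it changed no call of a member. Without both pool 2 arrays 91 genes passed, with the block as well 270, and with single arrays left out 0 to 27, the 27 without AFO pool 2. At an unadjusted p under 0.05 the count was 139. A member passed in none of these fits or of the other alternatives (smallest limma adjusted p 0.501, for Sc5d when the block was fitted without pool 2). Sc5d, Sqle and Srebf2 kept their sign in all 19 alternatives, at -0.49 to -0.20, 0.02 to 0.46 and 0.05 to 0.30. Several of these refit the same values of the same probe set, so their estimate could not change. The second Srebf2 probe set, at -0.03 (SE 0.16), entered only averaged with the brightest one. With single arrays left out Hmgcs1 ran from -0.61 to 0.34, Fdft1 from -0.29 to 0.0731, Fdps from -0.0558 to 0.11 and Lss from -0.0591 to 0.14. Without both pool 2 arrays, with or without the block, Hmgcs1 turned to 0.0765 and Fdps to -0.0492. Lss turned to -0.0131 with the mean of its probe sets and to -0.0736 with probe sets that lack the _x_at and _s_at endings, which read another probe set of that gene. Insig1 turned to 0.15 with array weights, whose estimate stopped before reaching its tolerance. The median of the LXR list moved to 0.10 with array weights and ran from -0.21 to 0.0592 with single arrays left out. The cause of the turns in Hmgcs1, Fdft1, Fdps and Insig1 was not tested. At the filter of the 60th percentile (5.97) Lss was not tested. Pools of 3 a genotype leave 95% intervals of 0.68 to 2.44 log2 units in width for the members.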
